A study of Mus musculus with 20 samples.

Results

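The Wnt group described here holds 6 genes that act at the cell surface or outside the cell. Wnt4 encodes a secreted Wnt ligand, Ndp encodes norrin, and Fzd4 encodes the receptor Frizzled-4. Frzb, Sfrp1 and Sfrp2 encode secreted proteins that carry a Frizzled-like domain, bind Wnt ligands and are known mainly as Wnt antagonists. Every probe set annotated with 1 of these 6 symbols was taken, which gave 8 of the 12654 probe sets on the array: 3 for Fzd4 and 1 for each other gene. The genes were chosen from the signals of these same arrays: their levels by group and the results of all 5 comparisons used here were in view. Their values are therefore a description and carry no p-value of their own.

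Total RNA of extraocular muscle (EOM), which moves the eye, and of leg muscle from 8-week-old mice had been hybridised to one-colour Affymetrix mouse arrays, with 5 arrays in each of 4 groups. The groups were mdx leg muscle, control leg muscle, mdx EOM and control EOM. In mdx mice a nonsense mutation in Dmd abolishes dystrophin, which makes them a model of Duchenne muscular dystrophy, whereas the series title calls the controls wild type. The labels give gastrocnemius and soleus as the source of the control leg samples and only leg muscle for mdx, and they state neither strain nor whether animals were pooled. Nothing in them says that the arrays of a group came from separate animals, so the spread between arrays may be partly technical. The description field of the mdx arrays also differs from that of the controls, so genotype and any batch that follows those labels cannot be told apart.

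Wnt proteins bind Frizzled receptors and LRP5 or LRP6 coreceptors, and in the canonical branch this keeps beta-catenin from being degraded so that it can act with TCF and LEF factors in the nucleus. Norrin is not a Wnt protein, yet it activates the same branch through Frizzled-4, with LRP5 and Tspan12, and is known for its role in blood vessels of the retina and inner ear. In skeletal muscle the pathway is known from limb myogenesis, from satellite cells during regeneration and from fibrosis, and Wnt4 is known from embryonic muscle formation and from clustering of acetylcholine receptors at the neuromuscular junction.

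The windows around the transcription starts of Wnt4, Frzb and Ndp are shown because these were the 3 genes with the largest differences between groups. Each window runs from 250 bases before to 50 bases after the start, 5′ to 3′ on the gene's strand, from RefSeq on build GRCm38.p6. The Wnt4 window is chr4:137277385-137277684 on the plus strand, the Frzb window chr2:80447347-80447646 on the minus strand and the Ndp window chrX:16911725-16912024 on the minus strand. Capitals mark an E-box (CANNTG), the kind of site that myogenic bHLH factors can bind, or a TATA box (TATAAA), each searched on both strands.
Wnt4 promoter: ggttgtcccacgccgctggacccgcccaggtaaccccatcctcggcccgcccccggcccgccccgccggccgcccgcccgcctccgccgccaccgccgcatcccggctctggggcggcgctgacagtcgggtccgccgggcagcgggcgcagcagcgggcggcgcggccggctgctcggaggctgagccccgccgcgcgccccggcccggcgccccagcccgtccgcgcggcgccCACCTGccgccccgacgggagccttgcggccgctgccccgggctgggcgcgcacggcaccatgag
Frzb promoter: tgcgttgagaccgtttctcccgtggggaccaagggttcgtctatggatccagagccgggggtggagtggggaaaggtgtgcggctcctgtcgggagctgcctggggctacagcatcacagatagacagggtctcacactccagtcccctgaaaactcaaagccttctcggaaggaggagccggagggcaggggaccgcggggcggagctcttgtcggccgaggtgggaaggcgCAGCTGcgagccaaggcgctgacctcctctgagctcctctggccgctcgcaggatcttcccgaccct
Ndp promoter: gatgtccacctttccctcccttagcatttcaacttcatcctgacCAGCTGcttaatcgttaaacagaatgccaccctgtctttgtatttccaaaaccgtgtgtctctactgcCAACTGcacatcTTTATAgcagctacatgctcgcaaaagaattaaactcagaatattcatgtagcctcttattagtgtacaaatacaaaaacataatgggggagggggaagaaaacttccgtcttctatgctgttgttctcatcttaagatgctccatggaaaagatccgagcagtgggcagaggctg
The Wnt4 window held 51 CG pairs at 84.3% G and C, and the Frzb window held 20 at 64.7%. The Ndp window held only 5 CG pairs at 43.0%. The median of 32851 mouse windows of this length was 7 CG pairs and 52.7%, so Wnt4 and Frzb lay above it and Ndp below. Wnt4 had 1 E-box (CACCTG) 15 bases before the start, and Frzb had 1 (CAGCTG) 17 bases before it. In the Ndp window 2 E-boxes lay 206 and 138 bases before the start, and a TATA match on the reverse strand (TTTATA) lay 126 bases before it. At least 1 E-box stood in 72.3% of all windows, and a TATA box in 13.6%. Sfrp2 (66.0% G and C, 22 CG pairs) and Fzd4 (72.7%, 32 CG pairs) had neither motif. None of the 5 windows held the TCF/LEF letters CTTTGAA or CTTTGAT, found in 8.65% of all windows.

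Signals are linear intensities scaled so that the 2% trimmed mean of every array is 500, and levels of different probe sets cannot be set against each other. For log2 differences, values under a floor of 50 were set to 50. The fit covered 7204 probe sets with a signal of 200 or more on 5 or more of the 20 arrays, and "passed" means an adjusted p under 0.05 over all of them. Of the 8 probe sets 7 entered the fit. Frzb reached 200 on 10 arrays, all of them EOM, so it was tested only through the muscle in which it is high. Wnt4 reached 200 on 13 arrays, Sfrp1 on 5, Ndp on 10, and Sfrp2 and the main Fzd4 probe set on all 20. Array values below are listed for arrays 1 to 5 of a group, and the main fit did not use these numbers to pair arrays between groups.

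Between 47.2% and 52.0% of the probe sets reached 200 on each array. The muscle labels were checked against fibre markers. Myh6, a myosin heavy chain found in some EOM fibres, read 47.6 to 197 on mdx EOM arrays and 177 to 215 on control EOM arrays, against 10.5 to 30.4 in mdx leg muscle and 13.4 to 60.6 in control leg muscle. The other extraocular fibre markers measured did not separate the muscles in this way. Myh8, a perinatal myosin, read 592 to 1088 in mdx EOM against 427 to 553 in mdx leg muscle, but 421 to 846 in control EOM against 341 to 724 in control leg muscle. Myh3, an embryonic myosin, had lower medians in EOM, at 250.1 in mdx EOM against 400.2 in mdx leg muscle and 504 in control EOM against 579 in control leg muscle, with overlapping arrays. The EOM-specific myosin Myh13 was not measured under a single symbol. Leg control arrays 1 and 4 stood apart from their group. The summed signal of 8 slow fibre markers was 94719 on array 1 and 3388 on array 4, against 37482 to 38855 on the other 3 leg control arrays. Array 4 also carried a sum of 10134 over 8 epithelium and gland markers, against 890 to 1906 on the other leg control arrays. Of this sum 8892 was Bpifa2 alone, and no other marker of the list exceeded 663 (Krt6a) on a leg control array. Results that rest on these arrays are given without them as well.

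**Figure D1:**
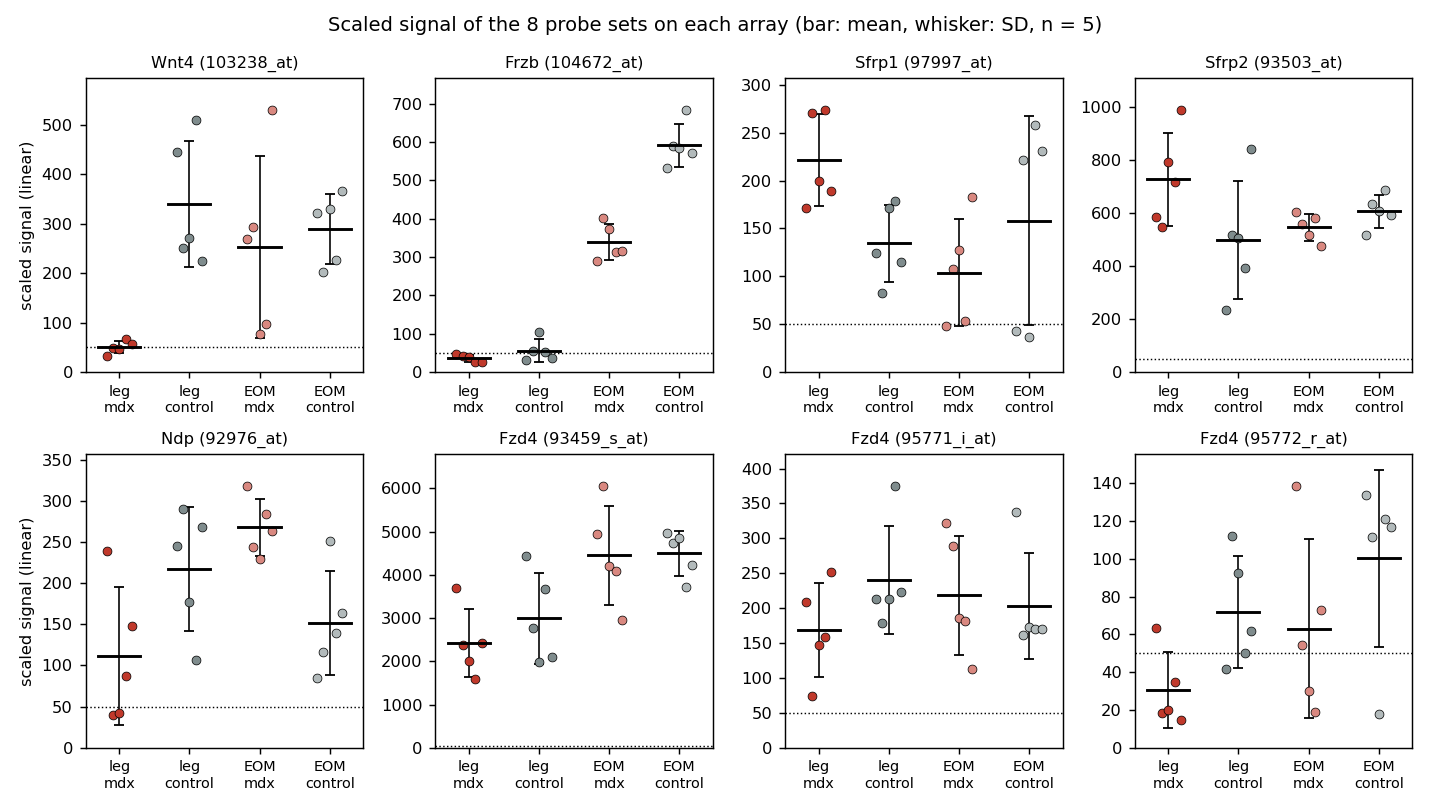
Scaled signal (linear, vertical axis from 0) of the 8 probe sets on each of 20 arrays, by group; bars are group means, whiskers SD (n = 5 each), and the dotted line is the floor of 50. Wnt4 is near the floor only in mdx leg muscle, and Frzb lies well above the floor only in EOM.

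Wnt4 stood out in mdx leg muscle, where its signal was near the floor. Probe set 103238_at read 33.1, 49.4, 45.7, 65.8 and 55.8 on the mdx leg arrays, against 444.0, 250.7, 270.2, 508.4 and 224.5 on the control leg arrays. Every mdx leg array lay below every control leg array, and 3 of the 5 mdx arrays were under the floor. The mean was 49.95 ± 12.1 in mdx and 340 ± 128 in control leg muscle (SD, n = 5 each). The log2 difference was -2.57 ± 0.41 (SE), at least 5.95-fold lower in mdx, and it passed. It was the only 1 of the 7 probe sets that passed in leg muscle, where 17.9% of all tested probe sets passed and 7.15% passed as lower. Non-overlapping groups were found for Wnt4 alone among the 7, and for 13.6% of all tested probe sets, 5.19% with mdx below control. Without leg control arrays 1 and 4, which held the 2 highest Wnt4 readings, the log2 difference was -2.20 and still passed.

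In EOM the Wnt4 arrays were split in mdx mice. They read 268.3, 293.8, 75.9, 96.4 and 529.6, against 320.5, 203.1, 329.7, 226.1 and 366.7 in control EOM. Arrays 3 and 4 of the mdx group lay below all controls and array 5 above all of them, so the groups overlapped. Means were 253 ± 183 in mdx and 289 ± 70.7 in control EOM (SD, n = 5 each), with a log2 difference of -0.51 ± 0.41 (SE) that did not pass. The same mdx arrays 3 and 4 had the lowest sums over 10 macrophage markers (4565 and 5989), and arrays 1, 2 and 5 had 8264, 6447 and 9222. They also had the lowest sums of the fibroblast and matrix, Schwann cell and nerve, fast fibre, and epithelium and gland lists. This was not so for the other marker lists, and no link of these sums with Wnt4 was tested.

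For Wnt4 the leg effect minus the EOM effect was -2.07 ± 0.58 (SE) and passed. Of the 7 probe sets 2 passed in this comparison, Wnt4 and Ndp, both negative, against 6.22% of all tested probe sets and 1.29% as negative. The Wnt4 difference of effects no longer passed in 10 of the 20 fits that left out 1 array, where it ran from -2.41 to -1.71, nor without leg control arrays 1 and 4 (-1.69). Across the groups, control leg muscle had the highest mean, followed by control EOM, mdx EOM and mdx leg muscle. The first 3 overlapped with their neighbours in this order, and mdx leg muscle lay below all arrays of the rest. In mdx mice EOM exceeded leg muscle on every array, by 1.88 ± 0.41 (SE) on the log2 scale, at least 3.67-fold, and this passed. In control mice the EOM minus leg difference was -0.19 ± 0.41 (SE), with overlapping arrays.

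The fall of Wnt4 in mdx leg muscle went with a large shift in markers of other cells, given in the plot of marker sums. All 10 macrophage markers were measured, and their summed signal was 28976 to 35922 in mdx leg muscle against 2421 to 3355 in control leg muscle. It was 4565 to 9222 in mdx EOM and 3908 to 5213 in control EOM. For 9 of 10 fibroblast and matrix markers the sums were 47005 to 55462 in mdx and 24016 to 29223 in control leg muscle. No marker was listed at 0 on any array. The part of these cells in the Wnt4 difference was not tested, and in such bulk samples fewer cells of a type and less RNA per cell cannot be told apart.

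Ndp, the gene of the Frizzled-4 ligand norrin, had a mean below the controls in mdx leg muscle and above them in mdx EOM, and neither mdx effect passed by itself. Probe set 92976_at read 238.8, 39.5, 42.6, 87.1 and 147.4 in mdx leg muscle, against 245.4, 290.2, 177.0, 106.6 and 268.5 in control leg muscle. Arrays 2 and 3 of the mdx group were under the floor while array 1 lay within the control range, so the groups overlapped. The means were 111 ± 83.7 in mdx and 218 ± 75.2 in control leg muscle (SD, n = 5 each), with a log2 difference of -1.11 ± 0.40 (SE). This passed with quantile normalization and in 3 of the 10 fits that left out 1 leg array.

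In EOM the Ndp readings were 318.6, 243.8, 229.9, 283.5 and 263.1 in mdx mice, against 84.9, 116.8, 251.3, 139.2 and 163.9 in controls. Only control array 3 reached into the mdx range. The means were 268 ± 34.9 in mdx and 151 ± 63.1 in control EOM (SD, n = 5 each), a log2 difference of 0.91 ± 0.40 (SE) that did not pass. The leg effect minus the EOM effect was -2.02 ± 0.56 (SE) and passed. It no longer passed in 11 of the 20 fits that left out 1 array, although without leg control arrays 1 and 4 together it was -2.25 and passed.

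The order of the Ndp means was mdx EOM, control leg muscle, control EOM and mdx leg muscle, and each neighbouring pair overlapped. Between muscles, mdx EOM exceeded mdx leg muscle by 1.49 ± 0.40 (SE) on the log2 scale. This passed, although mdx leg array 1 (238.8) lay inside the EOM range. In control mice the EOM minus leg difference was -0.53 ± 0.40 (SE) and did not pass. Among the markers that differed with it, the macrophage sums given above were higher in mdx leg than in mdx EOM on every array. The endothelial sums over 10 markers were 6264 to 8664 in mdx EOM against 4555 to 6076 in mdx leg muscle, also without overlap. Of these 10 markers 5 passed as higher in mdx EOM and 1 as lower, while 18.1% of all tested probe sets passed. Median Cldn5 was 79.7 in mdx EOM against 239 in mdx leg muscle, and median Pecam1 was 301 against 409. The part of these cells in the Ndp difference was not tested.

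Frzb, also called Sfrp3, separated EOM from leg muscle in both genotypes. Probe set 104672_at read 288.9, 402.8, 372.7, 314.0 and 316.2 in mdx EOM, against 46.4, 40.9, 40.4, 26.5 and 26.7 in mdx leg muscle. All 5 mdx leg arrays lay under the floor. Control EOM read 531.5, 589.0, 584.4, 683.8 and 571.5, against 32.1, 55.7, 104.9, 51.2 and 36.2 in control leg muscle. There 2 of the 5 leg arrays were under the floor, and the highest, array 3, stayed far below the lowest EOM array.

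The EOM minus leg difference of Frzb was 2.75 ± 0.24 (SE) on the log2 scale in mdx mice, at least 6.73-fold, and 3.31 ± 0.24 (SE) in control mice, at least 9.91-fold. Both passed in every fit that left out an array. In control mice Frzb was the only 1 of 7 probe sets that passed and the only 1 without overlap, against 17.7% and 13.5% of all tested probe sets, or 10.3% and 7.69% in the direction of higher in EOM. In mdx mice 4 of 7 passed, all higher in EOM (Wnt4, Frzb, Ndp and Fzd4 93459_s_at), and 2 did not overlap (Wnt4 and Frzb). There 18.1% of all tested probe sets passed, 9.24% as higher, and 14.4% did not overlap, 7.38% with EOM above leg muscle. Since the genes were chosen with these contrasts known, nothing is read from these counts.

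Other cells also differed between the muscles. The sums of 7 smooth muscle and pericyte markers were 9194 to 12147 in mdx EOM against 4180 to 5613 in mdx leg muscle, and 7198 to 9465 in control EOM against 3028 to 5405 in control leg muscle. In each genotype 5 of the 6 tested markers of this list passed as higher in EOM. The pericyte markers Rgs5 and Pdgfrb overlapped between the muscles in both genotypes. Median Rgs5 was 1014 in mdx EOM against 1065 in mdx leg muscle, and 929 in control EOM against 1159 in control leg muscle. For 4 of 7 Schwann cell and nerve markers the sums were 6838 to 7993 in mdx EOM against 1985 to 3230 in mdx leg, and 7239 to 9195 in control EOM against 1688 to 3107 in control leg muscle. Their part in the Frzb difference was not tested. Leg control array 4, which stood apart by its slow fibre sum and by Bpifa2, read 51.2 for Frzb. Without arrays 1 and 4 the control difference was 3.15.

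Within EOM, Frzb was lower on every mdx array than on every control array. Means were 339 ± 47.1 in mdx and 592 ± 56.1 in control EOM (SD, n = 5 each), a 1.75-fold lower value and a log2 difference of -0.81 ± 0.24 (SE). It did not pass in the fit over all probe sets, where 0.0833% passed and the arrays of 1.15% did not overlap between the groups, 0.652% with mdx below control. Frzb was the only 1 of the 7 whose EOM groups did not overlap, and 0 of the 7 passed. By limma 6 probe sets in all passed in EOM, and 369 had an unadjusted p under 0.05. In leg muscle the means were 36.2 ± 9.07 in mdx and 56.0 ± 29.1 in control mice, both near the floor, so no difference could be measured there. The leg effect minus the EOM effect was 0.56 ± 0.34 (SE) and did not pass, although it passed in 1 of the 9 processing settings compared.

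The other secreted antagonists had overlapping groups in every comparison, and neither passed in any of them with all arrays in the fit. Sfrp1, probe set 97997_at, read 171.4, 271.1, 199.4, 273.8 and 189.2 in mdx leg muscle, against 124.1, 83.0, 171.5, 178.6 and 114.7 in control leg muscle. Of the mdx leg arrays 4 lay above the highest control, and array 1 lay inside the control range. The means were 221 ± 48.1 in mdx and 134 ± 40.2 in control leg muscle, a log2 difference of 0.75 ± 0.48 (SE).

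In EOM Sfrp1 read 48.3, 107.7, 127.5, 53.5 and 182.4 in mdx mice, against 42.8, 221.9, 36.7, 258.4 and 231.4 in controls. The control EOM arrays fell into 2 under the floor and 3 above 220, while the mdx arrays ran from 48.3 to 182.4 with 1 under the floor. Means were 104 ± 55.6 in mdx and 158 ± 109 in control EOM (SD, n = 5 each), and the log2 difference was -0.46 ± 0.48 (SE). Mean Sfrp1 was highest in mdx leg muscle, then control EOM, control leg muscle and mdx EOM, and all neighbours overlapped. The EOM minus leg difference was -1.23 ± 0.48 (SE) in mdx mice and -0.03 ± 0.48 (SE) in control mice. The mdx value passed without EOM mdx array 5 (-1.48), with a floor of 100 and with only the groups compared.

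Sfrp2, probe set 93503_at, was above 230 on all 20 arrays. It read 585.5, 547.3, 791.7, 716.7 and 987.9 in mdx leg muscle, against 233.0, 516.4, 505.1, 391.8 and 840.2 in control leg muscle. The control group was wide, and its array 5 exceeded 4 of the 5 mdx arrays. Means were 726 ± 177 in mdx and 497 ± 223 in control leg muscle, and the log2 difference was 0.63 ± 0.23 (SE). Without leg control arrays 1 and 4, the 2 lowest, it was 0.23. It passed without leg control array 5 (0.85) and without leg mdx array 2 (0.73).

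EOM was narrower for Sfrp2, at 602.0, 557.8, 514.6, 578.8 and 473.7 in mdx mice, against 517.0, 633.5, 605.0, 685.0 and 590.0 in controls. The means were 545 ± 51.4 in mdx and 606 ± 61.6 in control EOM, a log2 difference of -0.15 ± 0.23 (SE). The order of the means was mdx leg muscle, control EOM, mdx EOM and control leg muscle, again with overlap between all neighbours. The EOM minus leg difference was -0.38 ± 0.23 (SE) in mdx and 0.40 ± 0.23 (SE) in control mice, and the control value was 0.0016 without leg control arrays 1 and 4. Without leg control array 5 the control value (0.62) and the leg effect minus the EOM effect (1.00, against 0.78 with all arrays) passed.

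Fzd4 was measured by 3 probe sets that did not give the same picture. The brightest, 93459_s_at, read 3698.0, 2375.7, 2004.9, 1600.6 and 2432.9 in mdx leg muscle, against 4443.5, 2778.0, 1993.6, 3680.2 and 2101.2 in control leg muscle. It read 4942.1, 6065.0, 4210.2, 4098.3 and 2951.1 in mdx EOM, against 4971.4, 4733.1, 4845.1, 3712.4 and 4232.0 in control EOM. Group means were 2422 ± 787 in mdx leg, 2999 ± 1051 in control leg, 4453 ± 1149 in mdx EOM and 4499 ± 521 in control EOM. The EOM means were thus above the leg means, while arrays of neighbouring groups overlapped throughout.

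The EOM minus leg difference of Fzd4 93459_s_at was 0.90 ± 0.23 (SE) in mdx mice, 1.86-fold, and passed. In control mice it was 0.65 ± 0.23 (SE) and did not pass, but without leg control arrays 1 and 4, the 2 highest of their group, it was 0.98 and passed. The control value also passed in 2 of the 10 fits that left out 1 array, and in 4 of the 10 processing settings compared. The mdx minus control difference was -0.29 ± 0.23 (SE) in leg muscle and -0.05 ± 0.23 (SE) in EOM, and without those 2 leg arrays the leg value was 0.04. The endothelial sums were 6922 to 8525 in control EOM against 4374 to 7487 in control leg muscle, overlapping, and the mdx sums are given above. Their part in the Fzd4 difference was not tested.

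Probe set 95771_i_at was dimmer, with means of 168 ± 67.2 in mdx leg, 241 ± 77.3 in control leg, 218 ± 85.5 in mdx EOM and 202 ± 76.1 in control EOM (SD, n = 5 each). It passed in no comparison, and its EOM minus leg difference was 0.39 in mdx and -0.26 in control mice. Over the 20 arrays its log2 values had r = 0.398 with those of 93459_s_at. Probe set 95772_r_at reached 200 on no array and was not tested, with 14.8 to 63.6 in mdx leg, 41.8 to 112 in control leg, 18.8 to 139 in mdx EOM and 18.1 to 134 in control EOM. The muscle difference of Fzd4 thus rests on 1 probe set, whose name carries the suffix for probes shared between related sequences.

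**Figure D2:**
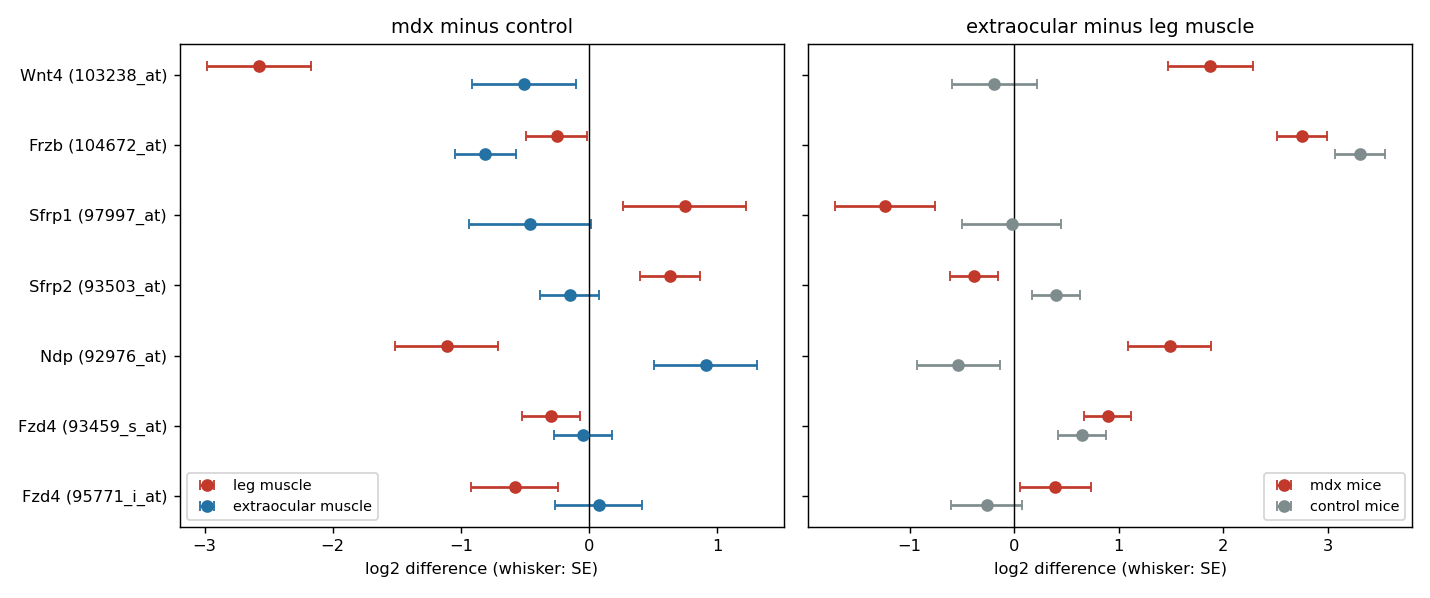
Log2 differences (horizontal axis) with SE whiskers for the 7 tested probe sets, mdx minus control on the left for leg muscle and EOM, and EOM minus leg muscle on the right for mdx and control mice. Wnt4 in leg muscle (-2.57) and Frzb between muscles (2.75 in mdx and 3.31 in control mice) lie farthest from 0.

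The median log2 difference over the 7 probe sets was -0.29 for mdx minus control in leg muscle and -0.15 in EOM, against -0.06 and -0.02 over all tested probe sets. It was 0.90 for EOM minus leg in mdx mice and -0.03 in control mice, against 0.00078 and 0.02 over all. The members did not move as a block over the 20 arrays. Pearson's r between log2 values of Wnt4 was 0.401 with Frzb, 0.402 with Ndp and -0.528 with Sfrp2. Ndp and Sfrp1 had r = -0.520. The highest value between different genes, 0.688, was that of Frzb and Fzd4 93459_s_at, both brighter in EOM, and all these values share arrays and the 4 group means.

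Genes whose log2 profile over the 20 arrays was most like that of a member, among probe sets with 1 symbol, are given by Pearson's r as a description. For Wnt4 they were Fmc1 (0.863), a factor for assembly of mitochondrial ATP synthase, Blcap (0.856) and Hsd17b10 (0.848), a mitochondrial dehydrogenase. Fmc1 read 2029 to 2683 in mdx leg muscle against 4152 to 5555 in control leg muscle, and 4117 to 6117 in mdx EOM against 4029 to 5088 in control EOM. Like Wnt4, it was lowest in mdx leg muscle without overlap.

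For Frzb they were Wfs1 (0.971), which encodes the endoplasmic reticulum membrane protein wolframin, Prkar1a (0.960), a regulatory subunit of protein kinase A, and Slc4a3 (0.960), an anion exchanger. Wfs1 read 3769 to 5501 in mdx EOM against 816 to 1045 in mdx leg muscle, and 4667 to 6048 in control EOM against 909 to 1299 in control leg muscle. For Fzd4 93459_s_at they were Mrpl45 (0.938), a mitochondrial ribosomal protein, Sec22b (0.903), a vesicle transport protein, and Clip4 (0.889).

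For Sfrp2, Ndp, Sfrp1 and the dimmer tested Fzd4 probe set the highest r was 0.860. Sfrp2 was most like Rsu1 (0.860), Pdia6 (0.827), a protein disulfide isomerase, and Ptpn9 (0.827), a tyrosine phosphatase. Ndp was most like Ctdsp2 (0.779), Zbtb16 (0.774), a zinc finger transcription factor, and Rpl41 (0.764), a ribosomal protein. Sfrp1 was most like Hfe (0.760), which is known from iron balance, Lhx1 (0.679), a LIM homeobox factor, and Tbk1 (0.678), a kinase of innate immune signalling. The nearest to Fzd4 95771_i_at, H2ac21, Cask and Sall3, had r of 0.688, 0.682 and 0.676.

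**Figure D3:**
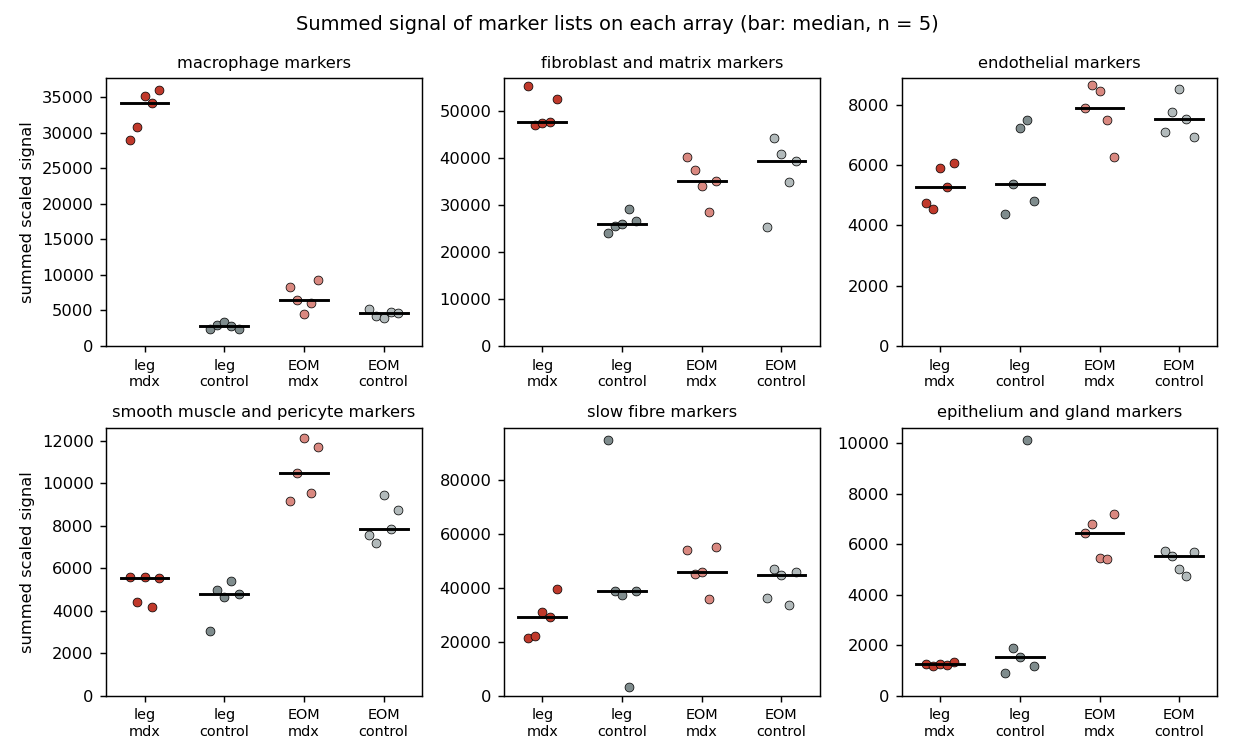
Summed scaled signal (linear, vertical axis from 0) of 6 marker lists on each of 20 arrays, by group; bars are medians (n = 5 each). The macrophage sums of mdx leg muscle stand above all other groups. Smooth muscle, epithelium and gland sums are higher in EOM apart from 1 control leg array at 10134, of which Bpifa2 alone gave 8892.

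Beyond the 6 genes, 128 other genes of the pathway were listed by role, and 45 of the 87 with a probe set of their own passed the filter. Each gene is represented by its brightest tested probe set. In mdx leg muscle 7 passed as higher and 2 as lower than in controls. Thus 9 of the 45 passed, against 17.9% of all tested probe sets, and 36 did not pass. Their median log2 difference was -0.08, against -0.06 over all. In EOM 0 of 45 passed by limma and 1 had an unadjusted p under 0.05.

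Among 6 tested ligands and secretion genes, Wls, the carrier that brings Wnt proteins to the cell surface, averaged 725 ± 83.7 in mdx and 534 ± 158 in control leg muscle (log2 difference 0.49, adjusted p = 0.04996 by limma). This call ended in 7 of the 10 fits that left out an array, with the highest adjusted p, 0.151, without leg control array 1, and without arrays 1 and 4 it was 0.177. The 2 tested antagonists, Sfrp4 and Dkk3, did not pass. Sfrp4 averaged 421 ± 95.8 in mdx and 292 ± 26.7 in control leg muscle (log2 difference 0.49, limma adjusted p = 0.106).

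Of 9 receptors and membrane regulators 1 passed, the cadherin Celsr2, known from planar cell polarity. It averaged 534 ± 81.9 in mdx and 1026 ± 325 in control leg muscle (log2 difference -0.90, limma adjusted p = 0.0173). It did not pass without leg control array 4 (0.0553). Of 19 cytoplasmic and nuclear components, Frat2, an inhibitor of GSK3, averaged 303 ± 63.5 in mdx and 550 ± 64.9 in control leg muscle (log2 difference -0.88, limma adjusted p = 0.00533). Tle3, a Groucho-type corepressor, averaged 455 ± 128 in mdx and 285 ± 111 in control leg muscle (log2 difference 0.71, limma adjusted p = 0.0404). The Tle3 call ended in 6 of 10 fits that left out an array, with 0.121 without leg control array 4 and 0.182 without arrays 1 and 4.

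Of 9 tested genes that are known as Wnt targets in some tissues, 5 passed as higher in mdx leg muscle and 0 as lower. Of all tested probe sets 10.7% passed as higher. The median of the 9 was 0.83, against -0.06 over all tested probe sets. The list was chosen with earlier results of these data known, so nothing is read from this count or median. Of the 9 tested fibroblast and matrix markers, a list that shares Fn1 with the targets, 8 passed as higher as well. Id2, an inhibitor of bHLH factors, averaged 825 ± 160 in mdx and 175 ± 74.2 in control leg muscle (log2 difference 2.34, limma adjusted p = 7.3e-07). Vcan, the matrix proteoglycan versican, averaged 746 ± 148 in mdx and 267 ± 124 in control leg muscle (1.69, adjusted p = 0.00805).

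Ccn4, also called Wisp1, a secreted matricellular protein, reached 200 on all 5 mdx leg arrays and on 1 other array, so it entered the fit through the group in which it is high. It averaged 323 ± 89.4 in mdx and 124 ± 65.3 in control leg muscle (log2 difference 1.47, limma adjusted p = 0.0022). Fn1, the matrix protein fibronectin, averaged 1912 ± 180 in mdx and 1058 ± 273 in control leg muscle (0.89, adjusted p = 0.000282). Fn1 is also among the fibroblast and matrix markers, whose sums differed in the same groups, as given above. Ccnd1, a cyclin of the cell cycle, averaged 824 ± 165 in mdx and 521 ± 113 in control leg muscle (0.66, adjusted p = 0.0237). The Ccnd1 call ended in 4 of 10 fits that left out an array, with 0.0731 without leg mdx array 3, and was 0.194 without leg control arrays 1 and 4. Axin2, the target most often used as a readout of beta-catenin signalling, averaged 179 ± 65.4 in mdx and 249 ± 47.1 in control leg muscle and did not pass (log2 difference -0.54, limma adjusted p = 0.256).

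For 4 of these targets the leg effect minus the EOM effect passed as positive, as it did for 4.93% of all tested probe sets. For Vcan it was 1.83 and did not pass (limma adjusted p = 0.0876). The difference of effects was 2.02 for Id2 (limma adjusted p = 0.00129), 1.73 for Ccn4 (0.0249), 1.07 for Ccnd1 (0.0264) and 0.95 for Fn1 (0.0109). Without leg control arrays 1 and 4 those of Id2 and Fn1 still passed (0.00174 and 0.0206), and those of Ccn4 and Ccnd1 did not (0.0504 and 0.102). The Ccn4 call also ended without leg mdx array 5 (0.0562), and the Ccnd1 call in 3 of 20 such fits. In EOM the same genes averaged 722 ± 101 (Id2), 148 ± 27.9 (Ccn4), 611 ± 152 (Ccnd1) and 1478 ± 211 (Fn1) in mdx mice. In control EOM they averaged 581 ± 116 (Id2), 177 ± 32.9 (Ccn4), 800 ± 167 (Ccnd1) and 1534 ± 162 (Fn1), and 0 of the 4 passed between these groups.

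Between the muscles of control mice, 9 of the 45 genes passed as higher in EOM and 2 as lower. Thus 24.4% passed, against 17.7% of all tested probe sets (10.3% passed as higher in EOM). Fzd2, another Frizzled receptor, reached 200 on 7 EOM arrays and on 0 leg arrays, so it entered the fit only through the muscle in which it is high. It averaged 202 ± 102 in control EOM and 29.7 ± 7.19 in control leg muscle, with all leg arrays under the floor, which made it at least 3.63-fold higher (limma adjusted p = 0.00137). In mdx mice it averaged 332 ± 116 in EOM and 96.7 ± 43.6 in leg muscle (log2 difference 1.83, limma adjusted p = 0.00149). Id2 was higher in control EOM than in control leg muscle by 1.84 on the log2 scale (limma adjusted p = 2.28e-05).

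Also higher in control EOM were Twist1, a bHLH factor, by 1.30 (0.0174), the ephrin Efnb1 by 1.08 (0.0217), the casein kinase 2 subunit Csnk2a1 by 0.95 (0.0218) and the glypican Gpc4 by 0.80 (limma adjusted p = 0.00317). The calls of Twist1 and Efnb1 ended without leg control arrays 1 and 4 (0.166 and 0.155) and without EOM control array 3 (0.0505 and 0.0606), that of Efnb1 also without leg control array 1 (0.0636), and that of Csnk2a1 in 4 of 10 fits that left out an array. Frat2 was lower in control EOM by -1.14 on the log2 scale (limma adjusted p = 0.000563), and Ruvbl1, an ATPase of chromatin remodelling complexes, by -0.60 (0.032), a call that ended in 7 of 10 such fits. In mdx mice Fzd2 was the only 1 of the 45 that passed as higher in EOM. Vcan (-1.47, limma adjusted p = 0.0207) and Ccn4 (-1.11, 0.0179) passed as lower. In mdx mice 6.67% of the 45 passed, against 18.1% of all tested probe sets. The Vcan call ended without EOM mdx array 3 (0.0698) and without leg mdx array 5 (0.0514), and that of Ccn4 without leg mdx array 5 (0.0563).

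**Figure D4:**
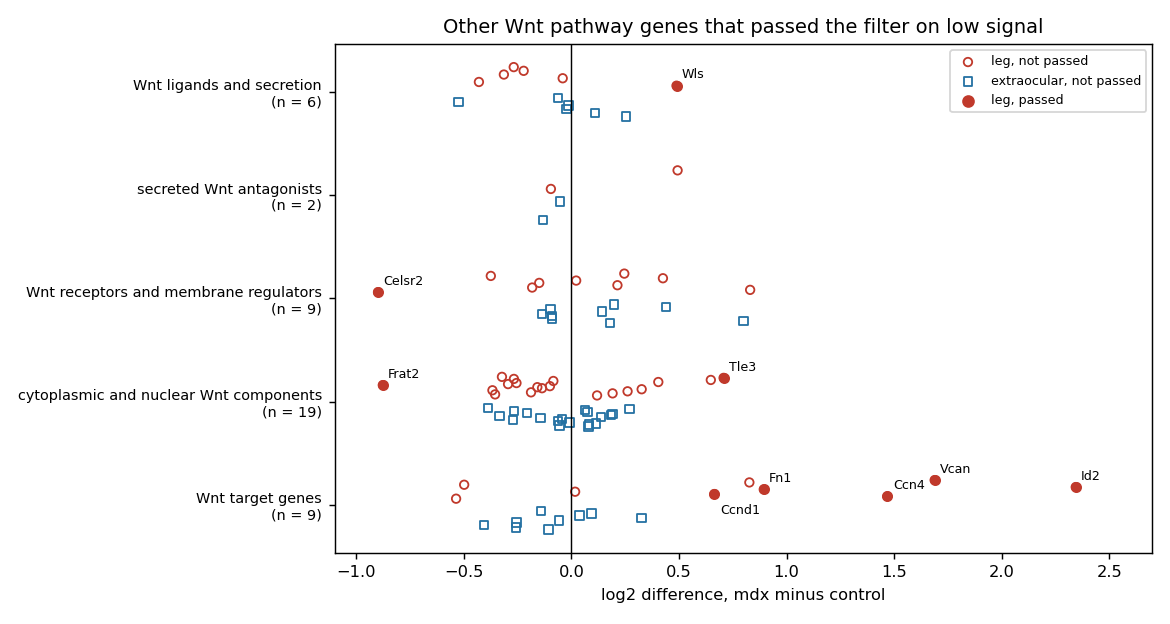
Log2 difference, mdx minus control, of the 45 other Wnt pathway genes that were tested, by role (1 line each), for leg muscle (circles) and EOM (squares); filled circles are the 9 genes that passed in leg muscle. Of the 9 target genes 5 are filled, all to the right of 0, and no EOM value passed.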

How the data were processed

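Per the value table of the series, the authors deposited 1 linear intensity per probe set and array. Which software summarised them is not stated in the sources used here. Their 2% trimmed mean was 1500.1 on every array, so the authors had scaled them. The members and all gene lists were chosen with earlier results of these data known.

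A single factor per array brought the 2% trimmed mean to 500, computed without Affymetrix controls, which leaves 12588 probe sets. The log2 values used here were taken from these deposited intensities after raising values under 50 to 50, which understates folds of dim genes. Folds are ratios of geometric means. A fold is written as "at least" where an array of the dimmer group lay under this floor. All 20 arrays entered 1 model of 4 groups without covariates over 7204 probe sets (limma 3.58.1, R 4.3.3: lmFit, then eBayes with trend). Benjamini-Hochberg adjustment ran within each of 5 contrasts at 5%. The fit was tested on simulated data. In the platform annotation 10276 non-control probe sets have 1 symbol, 363 have several and 1949 have none listed, and only the first kind is named. Probe set designs are old, and some may not measure their gene.

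Named are all members, per contrast up to 6 other Wnt pathway genes that passed in each direction, those with the largest difference, and the 3 genes most like each member by Pearson's r. Wls, which falls outside this limit of 6, is named as well. Sfrp4, Dkk3, Axin2 and Myh6 were taken up after their values were seen, as were Myh3, Myh8, Rgs5, Pdgfrb, Cldn5, Pecam1, Bpifa2 and Krt6a. Marker sums of adipocytes, satellite cells, fast fibres and extraocular fibres overlapped between mdx and control arrays within each muscle. Single markers could still differ. In leg muscle 2 of 7 tested satellite cell and myoblast markers passed as higher in mdx, and 1 of 4 adipocyte markers passed as lower. Alternatives were the deposited scale, quantile normalization, other floors and filters, a fit without trend or on the compared groups alone, a replicate block, gene means over probe sets, and leaving out arrays. The number of arrays limits the precision.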

Additional observations from a re-analysis of the deposited data

Results flagged for a closer look

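With all arrays in the fit, the difference of mdx effects between the muscles passed for 2 of the 6 genes and 4 other pathway genes. The leg effect minus the EOM effect was -2.07 for Wnt4 and -2.02 for Ndp on the log2 scale, which is a description since the genes were chosen with this contrast known. It was 1.07 for Ccnd1, 1.73 for Ccn4, 2.02 for Id2 and 0.95 for Fn1, from lists that were also chosen with earlier results known. The Wnt4 call ended in 10 and the Ndp call in 11 of the 20 fits that left out 1 array. Without leg control arrays 1 and 4 the calls of Wnt4, Ccn4 and Ccnd1 ended.

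Single arrays stood far from the rest of their group in 3 of the 32 groups of 5 arrays examined for the 8 probe sets, and chance gives about 1 such array in 20 groups. They were leg control array 4 of Fzd4 95771_i_at (376, the highest), EOM control array 1 of the same probe set (338, the highest) and EOM control array 3 of Fzd4 95772_r_at (18.1, the lowest). All belong to the dim Fzd4 probe sets, of which 95771_i_at passed in no comparison and the other was not tested.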

How the results depend on the processing

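No log2 difference of a probe set that passed changed its sign in any alternative run. The floor set the size where a group was dim. With a floor of 100, Wnt4 had -1.68 in leg muscle, -1.27 for the difference of effects (no longer passing, and without a filter neither it nor that of Ndp passed) and 1.08 between muscles in mdx mice, and Frzb had 2.55 and 1.75 between muscles in control and mdx mice, while its mdx effect in EOM passed at this floor. With a floor of 20, Frzb had -0.54 in leg muscle, 0.27 for the difference of effects and 3.26 between muscles in mdx mice. Without leg control arrays 1 and 4, chosen because earlier results showed them apart, Sfrp2 had 0.23 in leg muscle, 0.39 for the difference of effects and 0.0016 between control muscles. Counts of the 45 other pathway genes that passed were then 2 (4 with all arrays) for the difference of effects, 7 (11) between control muscles and 5 (3) between mdx muscles. At a filter of 500 Wnt4, Sfrp1, Ndp and Fzd4 95771_i_at were not tested, and only the groups compared give no difference of effects. With the filter at 500 the last 2 counts were 5 and 1, and without a filter the last was 7. Leaving out 1 array gave 7 to 12 between control muscles, lowest without EOM control array 3, and 1 to 5 between mdx muscles, lowest without leg mdx array 5 and highest without leg control array 1. The 6 probe sets that passed in EOM were 11 with a floor of 100 and 3 without a filter, and 3 to 11 when 1 array was left out. They were 3 without EOM control array 2 or 3 or EOM mdx array 5, and 11 without EOM mdx array 3. The causes of these shifts were not tested. Same-numbered arrays had deviations correlated between -0.084 and 0.228. Within a muscle every such value between mdx and control arrays was positive, at 0.0124 to 0.180 in leg muscle and 0.0194 to 0.228 in EOM. The means were 0.102 and 0.099. Those for arrays of different number were -0.025 and -0.024. Because deviations were taken from group means, these largely follow from the first 2 and are no separate baseline. What same-numbered arrays share was not tested, and the main fit did not pair them. With the replicate number as a block, 8, 0, 4, 11 and 4 pathway genes passed, against 9, 0, 4, 11 and 3, and of the members only the control muscle difference of Fzd4 93459_s_at changed its call, now passing.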
